A study of Homo sapiens with 24 samples.

Results

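The 41 genes of autophagy and of its lysosomal end point described here were measured with DHT and with knockdown of an ETS factor in 2 human prostate cancer lines. They were chosen by name and represented by 1 probe set each, the one with the highest mean over 24 arrays, out of 19775 genes with a probe set of their own. By step, 18 act in initiation, 14 in conjugation of ubiquitin-like proteins, 3 in cargo capture and 6 at the lysosome. The arrays were Affymetrix HG-U133 Plus 2.0, a platform of short oligonucleotide probe sets read in 1 colour, and values are intensities in array units. VCaP cells, which carry a TMPRSS2-ERG fusion, received siRNA to ERG (siERG) or a control siRNA (siControl). LNCaP cells, which carry a rearranged ETV1, received a short hairpin to ETV1 (shETV1) or a control hairpin (shControl). 24 h after the RNA interference all cells were kept for 2 days without hormone and then for 16 h with the vehicle ethanol (EtOH) or 10 nM DHT, the androgen dihydrotestosterone, so that every group had been through hormone withdrawal. Each of the 8 groups held 3 arrays, labelled A, B and C, which the design text calls biological replicates. Each knockdown was made in 1 line with 1 reagent per target, as far as the labels say, and each line stands for 1 tumour. The median intensity of an array was 47.57 to 53.25 in VCaP and 42.73 to 44.78 in LNCaP, and the lines were compared through their changes, not their levels.

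Autophagy encloses cytoplasm in a double membrane, the autophagosome, and delivers it to the lysosome for digestion. The ULK kinase complex starts the process when nutrient sensing by mTORC1 falls or AMPK is active, and a class III PI3-kinase complex then marks the growing membrane with a phosphoinositide that WIPI proteins bind. A pair of ubiquitin-like systems attaches ATG8 proteins (LC3 and GABARAP) to that membrane, receptors such as SQSTM1 tie cargo to them, and TFEB and TFE3 are transcription factors for lysosomal and autophagy genes. Androgens are the main growth signal of the prostate epithelium from which both lines come.

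The checks on the samples were as follows. ERG changed by -0.82 ± 0.06 log2 units with siERG in EtOH and by -1.09 ± 0.06 in DHT, and ETV1 by -0.61 ± 0.07 and -0.62 ± 0.07 with shETV1, so the knockdowns were partial. KLK3, the androgen-induced gene for prostate-specific antigen, changed with DHT by 0.61 ± 0.06 in VCaP siControl and 2.47 ± 0.07 in LNCaP shControl cells. The 4 luminal markers tested (KLK3, KRT8, KRT18 and HOXB13) lay above the array median on all 24 arrays and the basal markers KRT5 and KRT14 on none. Of other cell types, 1 of 4 fibroblast markers (COL1A1) lay above it on every array, 0 of 3 endothelial markers did, and 1 of 4 leukocyte markers (LYZ) did in VCaP and 0 of 4 in LNCaP, while CDH5, CD3D and CD14 lay below it on all 24. VWF lay above it on 10 of 12 VCaP and 9 of 12 LNCaP arrays, and PECAM1 on 6 and 5. DCN did on 6 and 3, COL3A1 on 2 and 5, COL1A2 on 0 and 3 and PTPRC on 0 and 1. The summed leukocyte markers, mostly LYZ, were 406 to 474 in VCaP siControl and 194 to 259 in siERG cells with EtOH, and the summed fibroblast markers were 528 to 559 with EtOH and 399 to 463 with DHT in LNCaP shControl cells (527 to 565 and 373 to 430.4 in shETV1 cells). The leukocyte sum was 458 to 495 in siControl and 259 to 286 in siERG cells with DHT. The endothelial sum was 142 to 179 with EtOH and 74.2 to 95.6 with DHT in shControl cells and 191 to 204 and 85.9 to 98.6 in shETV1 cells. The part of these sums in the results was not tested. A measure of RNA integrity was the ratio, on a linear scale, of 3-prime to 5-prime GAPDH control probe sets. It was 1.09 ± 0.02 against 1.05 ± 0.01 (SD, n = 3) for siERG against siControl in EtOH and 1.03 ± 0.01 against 1.07 ± 0.01 in DHT. The arrays of these groups did not overlap (exact two-sided permutation p = 0.1, the smallest that 3 against 3 arrays allow), nor did those of DHT and EtOH in either VCaP background. The GAPDH ratio also did not overlap for shETV1 against shControl in DHT (1.08 ± 0.01 against 1.09 ± 0.0026), nor the same ratio of ACTB for siERG against siControl in DHT (2.84 ± 0.31 against 3.5 ± 0.06), each with an exact p of 0.1. The log2 of the GAPDH ratio was entered as a covariate in a further fit.

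DHT comparisons called more of the 41 genes than knockdown comparisons did. A change here is a difference of log2(intensity + 16) between group means ± its standard error from limma, n = 3 arrays per group, so a fold derived from it understates the change of dim genes. A gene is said to rise or fall when its p adjusted over all genes tested was below 0.05. All 41 members passed the filter on low intensities in both lines, and 40 of them lay above the array median on all 24 arrays. The exception, VMP1, passed in VCaP through its DHT arrays alone, so its VCaP rises, which are counted below, are a description. With DHT in VCaP siControl cells 13 members rose (19.6% of all genes tested) and 11 fell (25.4%), and in siERG cells 14 rose (20.1%) and 12 fell (25.2%). In LNCaP shControl cells 5 rose (18.6%) and 12 fell (22.3%), and in shETV1 cells 5 rose (18.8%) and 11 fell (19%). The share of members that rose was above the background in VCaP and below it in LNCaP, and the share that fell was close to it in VCaP and above it in LNCaP. The median change of the 41 members was -0.06, -0.02, -0.11 and -0.05 in this order, against -0.03, -0.02, -0.01 and -0.0034 over all genes tested. The 4 DHT comparisons share no arrays. Arrays centred on their medians gave 7 higher and 8 lower members in LNCaP shControl cells. With the GAPDH ratio as covariate 10 rather than 26 members were called in siERG cells, where the ratio differed between DHT and EtOH arrays without overlap. That covariate also raised the median standard error over all genes in this comparison, as given below. Shares of all genes called under alternative settings are not given here or below, so counts under those settings are not read against a background. Without probe sets of the _x_at and _s_at kinds, which can bind several transcripts, 15, 15, 11 and 8 members were called. ATG13, RB1CC1, ATG5, ATG16L1, ATG4B, ATG4D, MAP1LC3B, GABARAPL1 and GABARAPL2 have only probe sets of these kinds and were absent from that fit.

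The same 10 members were called in one direction in all 4 DHT comparisons. WIPI1, TFEB and ATG101 rose in each (3 of 41 members, 7.32%, against 7.7% of the 12305 genes tested in both lines). RB1CC1, ATG3, ATG5, ATG7, ATG4C, NBR1 and OPTN fell in each (7 of 41, 17.1%, against 8.09%). With the GAPDH ratio as covariate, 2 members rose and 3 fell in all 4 comparisons, and without the _x_at and _s_at probe sets 2 fell. RB1CC1 and ATG5 have only such probe sets and could not be called in the latter fit. Some calls passed under every other setting run in which the gene was tested, single left-out arrays included. Leaving VMP1 aside, these were WIPI1, TFEB, ULK2, ATG2B, ATG5, ATG4C and OPTN in both VCaP backgrounds. In both LNCaP backgrounds they were ULK3, ATG101, WIPI1, TFEB, RB1CC1, ATG4C, OPTN and LAMP2. ATG5 and RB1CC1 were not tested without the _x_at and _s_at probe sets. At the other end, 7 members were called in none of the 4 comparisons: ULK1, BECN1, PIK3C3, PIK3R4, ATG14, ATG2A and STX17.

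**Figure D1:**
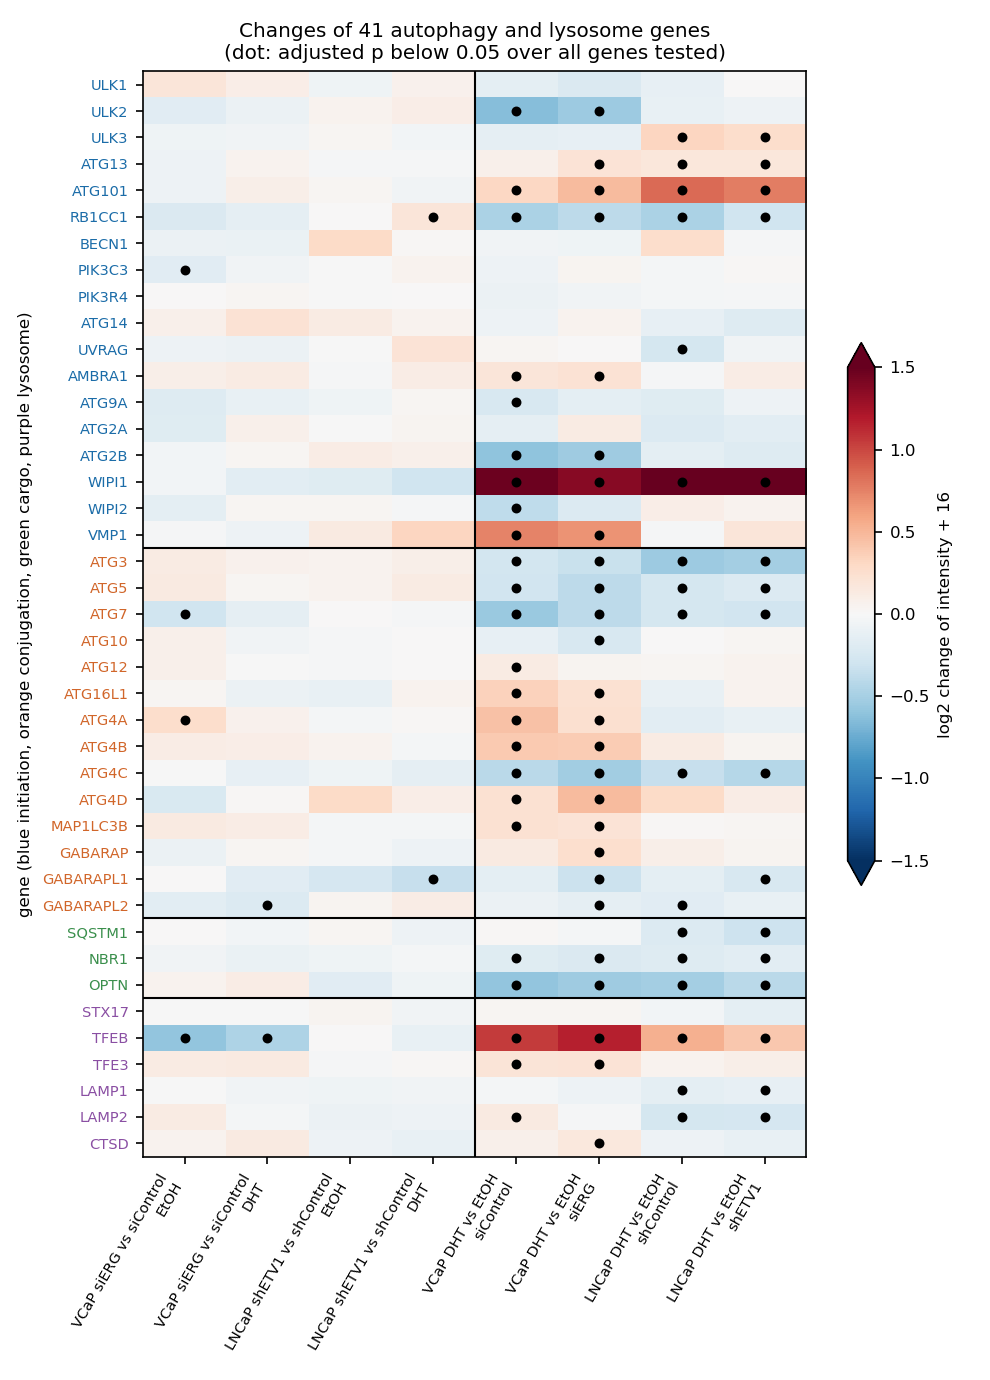
Log2 change of each of the 41 genes (rows, coloured by step) in the 4 knockdown comparisons (left) and the 4 DHT comparisons (right); a black dot marks an adjusted p below 0.05 over all genes tested. The DHT columns hold 24, 26, 17 and 16 dots and the knockdown columns 4, 2, 0 and 2, and WIPI1, at 1.36 to 2.49 in the DHT columns, lies near or beyond the end of the colour scale.

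WIPI1 had the largest DHT response of the 41 genes in both lines. It encodes a beta-propeller protein that binds the phosphoinositide made by the PI3-kinase complex and marks sites where autophagosomes form. In VCaP siControl cells its intensity was 167, 165 and 171 on the 3 EtOH arrays and 497, 507 and 475 on the 3 DHT arrays. In siERG cells it was 147, 167 and 174 in EtOH and 415, 449.8 and 461 in DHT. The groups did not overlap, and the rise was 1.47 ± 0.06 (adjusted p = 3.51e-08) in siControl and 1.36 ± 0.06 (adjusted p = 5.59e-08) in siERG cells, 2.78-fold and 2.57-fold. In LNCaP the values were 121, 142 and 117 with EtOH and 787, 780.3 and 772 with DHT in shControl cells. In shETV1 cells they were 117, 105 and 107 and 626, 698 and 572. Every DHT array lay above every EtOH array of the line. The rise was 2.49 ± 0.08 (adjusted p = 1.23e-09) in shControl, 5.60-fold, and 2.36 ± 0.08 (adjusted p = 2.01e-09) in shETV1 cells. A second WIPI1 probe set gave 1.46 and 1.39 in VCaP and 2.47 and 2.25 in LNCaP, close to the first. With DHT present, shETV1 arrays were lower than shControl arrays with no overlap (-0.30 ± 0.08, adjusted p = 0.054). This difference did not pass, but it passed under 11 other settings, with an adjusted p of 0.00981 for averaged probe sets and 0.0167 in a fit of all 24 arrays.

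**Figure D2:**
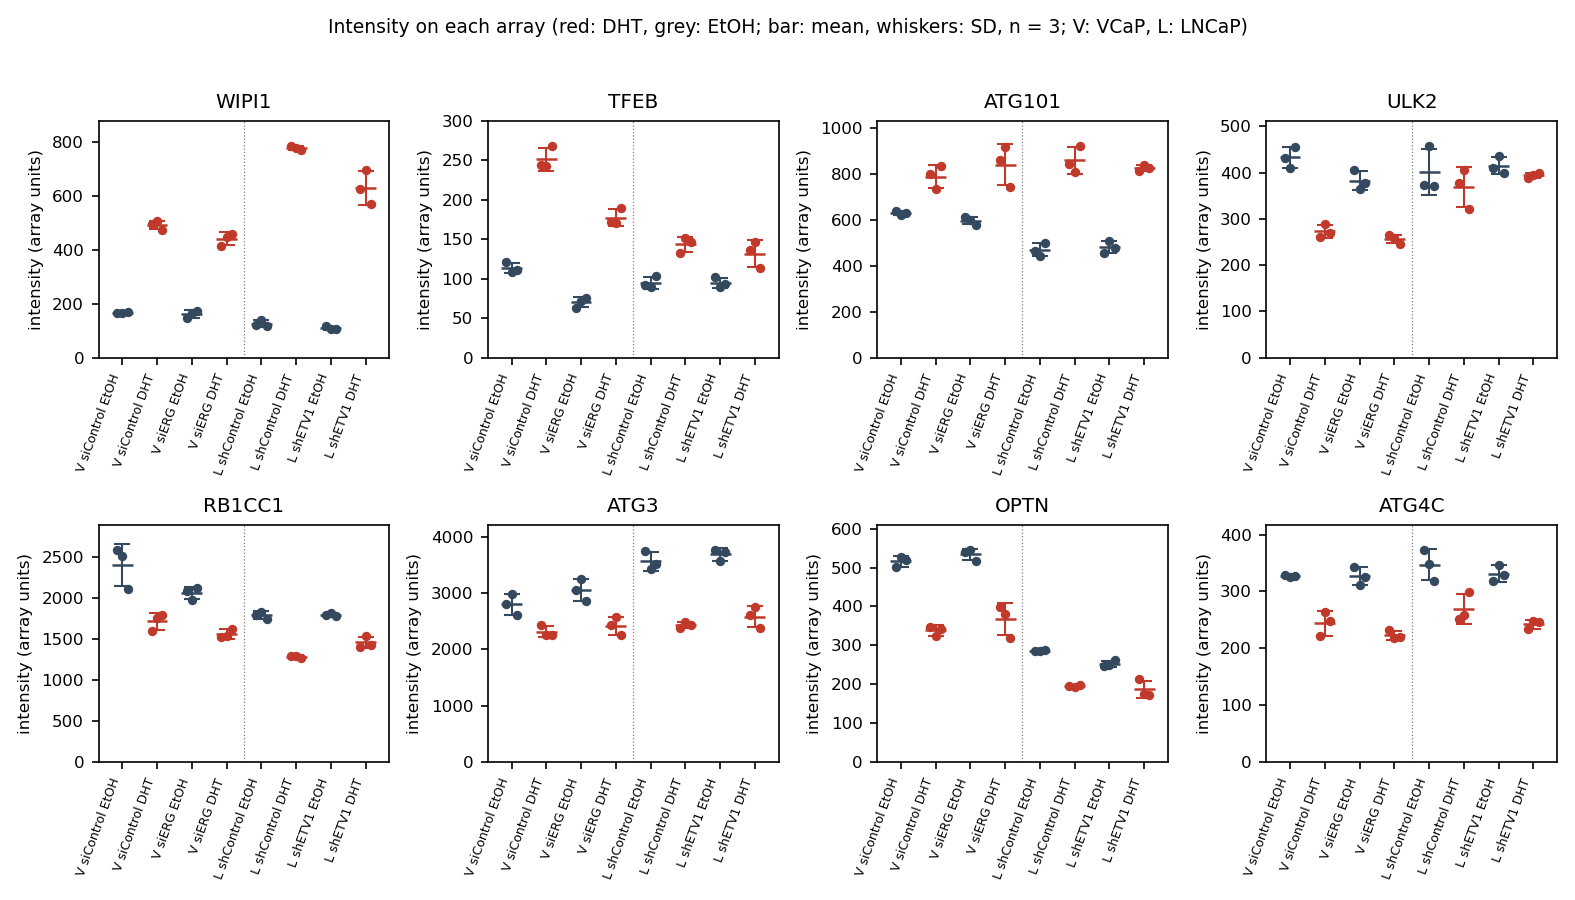
Intensity of 8 members on every array, in array units from 0, by group (V: VCaP, L: LNCaP); points are arrays, bars means and whiskers SD, n = 3. WIPI1, TFEB and ATG101 are higher with DHT (red) than with EtOH (grey) in both lines, RB1CC1, ATG3, OPTN and ATG4C are lower, and ULK2 is lower in VCaP, with LNCaP values that overlap between EtOH and DHT in shControl cells.

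The subunits of the ULK complex moved in different directions. ATG101, which stabilises ATG13 in the complex, rose in all 4 comparisons. Its VCaP siControl arrays read 639, 621 and 630.2 with EtOH and 801, 733 and 833 with DHT. The LNCaP shControl arrays read 465, 444 and 502 and 845, 809.9 and 923. Neither pair of groups overlapped. The rise was 0.32 ± 0.07 (adjusted p = 0.00504) and 0.48 ± 0.07 (adjusted p = 3.55e-04) in VCaP siControl and siERG cells, and 0.85 ± 0.06 (adjusted p = 1.02e-06) and 0.76 ± 0.06 (adjusted p = 2.64e-06), in LNCaP shControl and shETV1 cells. RB1CC1, the large scaffold also called FIP200, fell in all 4. Its arrays read 2588, 2513 and 2111 with EtOH and 1597, 1764 and 1791 with DHT in VCaP siControl cells and 1798, 1836 and 1741 and 1294, 1294 and 1267 in LNCaP shControl cells. The change was -0.48 ± 0.08 (adjusted p = 4.75e-04) and -0.40 ± 0.08 (adjusted p = 0.00165) in VCaP and -0.47 ± 0.04 (adjusted p = 4.84e-06) and -0.30 ± 0.04 (adjusted p = 1.96e-04) in LNCaP. With the GAPDH ratio as covariate the siERG values of ATG101 and RB1CC1 were 0.26 and -0.31 and did not pass (adjusted p = 0.231 and 0.228).

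The ULK kinases differed from one another. ULK1, the kinase that phosphorylates much of the initiation machinery, was not called in any comparison. Its group means lay between 211 ± 28.9 (SD, VCaP siControl DHT) and 269 ± 34.0 (VCaP siERG EtOH) in VCaP, and its arrays ran from 201 to 258 over the 12 LNCaP arrays. Its DHT changes were -0.14 ± 0.15, -0.22 ± 0.15, -0.12 ± 0.08 and 0.00029 ± 0.08 in the order VCaP siControl, siERG, LNCaP shControl, shETV1. ULK2, a close relative of ULK1, fell in VCaP. It read 432, 411 and 456 with EtOH and 260.4, 289 and 270.3 with DHT in siControl cells, a log2 change of -0.63 ± 0.06 (adjusted p = 8.45e-06). In siERG cells it read 406, 364 and 378 and 265, 258 and 246, a log2 change of -0.55 ± 0.06 (adjusted p = 2.43e-05). The EtOH and DHT arrays were apart in both. Its LNCaP changes, -0.12 ± 0.09 and -0.07 ± 0.09, did not pass. ULK3 rose in LNCaP, by 0.33 ± 0.07 (adjusted p = 0.00268) in shControl and 0.26 ± 0.07 (adjusted p = 0.0119) in shETV1 cells, and was -0.13 ± 0.07 in VCaP siControl cells. ATG13, the adaptor of the ULK complex, rose by 0.17 ± 0.05 (adjusted p = 0.0219) and 0.17 ± 0.05 (adjusted p = 0.0232) in LNCaP. It rose by 0.20 ± 0.07 (adjusted p = 0.041) in VCaP siERG cells.

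Few genes of the class III PI3-kinase complex passed. Among its 6 members BECN1, PIK3C3 (the kinase), PIK3R4 and ATG14 were called in no DHT comparison, with changes from -0.19 (ATG14 in shETV1) to 0.26 (BECN1 in shControl). The BECN1 value came with a wide spread, since its LNCaP shControl EtOH arrays read 1607, 1663 and 1099 and the last of these is far below the others. AMBRA1, a regulator of BECN1, rose in VCaP by 0.19 ± 0.04 (adjusted p = 0.00551) and 0.22 ± 0.04 (adjusted p = 0.00203). UVRAG fell with a log2 change of -0.26 ± 0.09 (adjusted p = 0.0356) in LNCaP shControl cells and was -0.05 ± 0.09 in shETV1 cells.

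Genes of membrane supply and phosphoinositide binding other than WIPI1 were called in VCaP. ATG2B, which transfers lipid to the growing membrane, read 1007, 1054 and 962 with EtOH and 662, 657 and 645 with DHT in siControl cells and 981, 981 and 966 and 681, 672 and 655 in siERG cells. It fell without overlap, with changes of -0.61 ± 0.04 (adjusted p = 9.82e-07) and -0.53 ± 0.04 (adjusted p = 2.54e-06). The LNCaP changes, -0.15 ± 0.07 and -0.19 ± 0.07, did not pass, but the latter passed under 8 other settings (adjusted p = 0.0164 in the fit of all 24 arrays) and the former with averaged probe sets (-0.23, adjusted p = 0.0132). Its relative ATG2A passed in no comparison. WIPI2, another phosphoinositide reader, fell with a log2 change of -0.38 ± 0.08 (adjusted p = 0.00213) in VCaP siControl cells, the opposite direction to WIPI1, and was -0.21 ± 0.08 in siERG cells, which did not pass but did under 12 other settings (adjusted p = 0.0174 for averaged probe sets and 0.0302 with the GAPDH covariate). In siControl cells ATG9A, a lipid scramblase that arrives on vesicles, fell with a change of -0.24 ± 0.08 (adjusted p = 0.0415). VMP1, a membrane protein of the endoplasmic reticulum, read 30.5, 30.1 and 29.1 with EtOH and 63.4, 60.4 and 58.1 with DHT in siControl cells, and 30.7, 31.6 and 26.4 and 60.6, 60.2 and 49.6 in siERG cells. The EtOH arrays were below the array median on all 6 and the DHT arrays above it on all 6. The change was 0.74 ± 0.07 and 0.67 ± 0.07, and since VMP1 entered the VCaP test through its DHT arrays, this is a description. Its LNCaP changes were -0.01 ± 0.11 and 0.18 ± 0.11.

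Among the enzymes that conjugate ATG12 and the ATG8 proteins, ATG3, ATG5 and ATG7 fell with DHT in all 4 comparisons. ATG3, the E2-like enzyme that places ATG8 proteins on lipid, read 2802, 2993 and 2617 with EtOH and 2437, 2253 and 2259 with DHT in VCaP siControl cells. In LNCaP shControl cells it read 3748, 3426 and 3526 and 2379, 2493 and 2434. No arrays overlapped in either line. The change was -0.27 ± 0.07 (adjusted p = 0.00877) and -0.34 ± 0.07 (adjusted p = 0.00264) in VCaP siControl and siERG cells and -0.55 ± 0.06 (adjusted p = 2.13e-05) and -0.51 ± 0.06 (adjusted p = 3.91e-05) in LNCaP shControl and shETV1 cells. A dimmer second probe set of ATG3 gave -0.08 in siControl and -0.53 in shControl cells. ATG5, which is joined to ATG12, read 2298, 2294 and 2281 with EtOH and 1946, 1775 and 1913 with DHT in VCaP siControl cells and 2350.0, 2446 and 2133 and 1933, 1974 and 1829 in LNCaP shControl cells. It fell with changes of -0.29 ± 0.05 (adjusted p = 6.49e-04), -0.39 ± 0.05 (adjusted p = 6.77e-05), -0.27 ± 0.05 (adjusted p = 0.00219) and -0.20 ± 0.05 (adjusted p = 0.0123) in the same order. ATG7, the E1-like enzyme of both systems, read 277, 334 and 309 with EtOH and 181, 212 and 219 with DHT in siControl cells, without overlap, a log2 change of -0.55 ± 0.09 (adjusted p = 3.64e-04). It also fell in siERG, shControl and shETV1 cells, with changes of -0.39 ± 0.09, -0.26 ± 0.09 and -0.29 ± 0.09. The 4 probe sets of ATG7 disagreed, from -0.55 to 0.17 in siControl and from -0.26 to 0.21 in shControl cells, so the ATG7 values depend on the probe set.

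The other genes of the conjugation systems passed in VCaP alone or not at all. ATG16L1, which sets where conjugation takes place, rose in VCaP by 0.35 ± 0.05 (adjusted p = 3.87e-04) and 0.23 ± 0.05 (adjusted p = 0.00582), and the average of its probe sets gave -0.10 in siERG cells (adjusted p = 0.51). ATG12 rose by 0.12 ± 0.04 (adjusted p = 0.0355) in siControl cells. ATG10, the E2-like enzyme for ATG12, fell with a log2 change of -0.24 ± 0.07 (adjusted p = 0.0113) in siERG cells and was -0.12 ± 0.07 in siControl cells.

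The 4 ATG4 proteases, which trim ATG8 proteins and release them from membranes, split by member. In VCaP ATG4A, ATG4B and ATG4D rose and ATG4C fell. ATG4A read 281, 281 and 322 with EtOH and 400.2, 423 and 394 with DHT in siControl cells, a rise of 0.44 ± 0.07 (adjusted p = 3.03e-04), and 350.7, 369.6 and 350.2 and 442, 446 and 390.1 in siERG cells, a rise of 0.24 ± 0.07 (adjusted p = 0.0123). ATG4B rose by 0.40 ± 0.08 and 0.38 ± 0.08 and ATG4D by 0.23 ± 0.08 and 0.47 ± 0.08. In LNCaP these 3 did not pass. ATG4C read 329, 326 and 327 with EtOH and 221, 264 and 247 with DHT in VCaP siControl cells, and 319, 347 and 328 and 233, 248 and 247 in LNCaP shETV1 cells. It was lower with DHT without overlap in all 4 comparisons, with changes of -0.40 ± 0.06 (adjusted p = 3.33e-04), -0.52 ± 0.06 (adjusted p = 5.48e-05), -0.35 ± 0.07 (adjusted p = 0.00265) and -0.43 ± 0.07 (adjusted p = 7.67e-04) in the usual order.

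The genes of the ATG8 proteins themselves gave small changes, the largest with DHT being -0.32 ± 0.09 for GABARAPL1 in siERG cells. MAP1LC3B, the gene of LC3B, read 1079, 1066 and 1099 with EtOH and 1259.6, 1275 and 1266 with DHT in VCaP siControl cells, apart from each other, and 1108, 1165 and 1286 and 1393, 1335 and 1366 in siERG cells. It rose by 0.23 ± 0.05 (adjusted p = 0.00469) and 0.20 ± 0.05 (adjusted p = 0.00893). In LNCaP shControl cells it read 1577, 1634 and 1541 with EtOH and 1575, 1561 and 1687 with DHT, values that overlap, and its changes were 0.02 ± 0.05 and 0.02 ± 0.05. A second probe set, about as bright, gave 0.0013 in siControl, 0.11 in siERG, 0.15 in shControl and -0.01 in shETV1 cells. The average of both was 0.11 in siControl cells and did not pass (adjusted p = 0.059), so the MAP1LC3B rise there depends on the probe set. GABARAPL1 read 544, 629.6 and 645 with EtOH and 581, 491 and 563 with DHT in VCaP siControl cells and 581, 638 and 599 and 451, 525 and 469 in siERG cells. In LNCaP it read 719.6, 731 and 791 and 622, 707 and 693 in shControl and 617, 603 and 654 and 518, 585 and 478 in shETV1 cells. It fell in the knockdown cells of both lines, with changes of -0.32 ± 0.09 (adjusted p = 0.0101) with siERG and -0.24 ± 0.08 (adjusted p = 0.0283) with shETV1, while -0.15 ± 0.09 and -0.15 ± 0.08 in control cells did not pass. The interaction terms, -0.18 ± 0.12 and -0.10 ± 0.11, did not pass either, so no difference between knockdown and control cells is shown. GABARAP rose by 0.25 ± 0.07 (adjusted p = 0.0129) in siERG cells. GABARAPL2, also called GATE16, fell with log2 changes of -0.13 ± 0.05 (adjusted p = 0.0441) in siERG cells and -0.17 ± 0.06 (adjusted p = 0.0481) in shControl cells, where the EtOH and DHT arrays overlapped.

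All 3 cargo receptors fell with DHT in LNCaP and 2 of them in VCaP. OPTN, optineurin, a receptor for damaged mitochondria and bacteria, read 500.3, 528 and 521 with EtOH and 348, 323 and 343 with DHT in VCaP siControl cells. In siERG cells it read 539.7, 545 and 518 and 398, 382 and 320.0. In LNCaP shControl cells it read 284, 285 and 288 and 195, 193 and 198. The groups were apart, and the fall was -0.59 ± 0.07 (adjusted p = 6.34e-05), -0.53 ± 0.07 (adjusted p = 1.35e-04), -0.52 ± 0.07 (adjusted p = 8.93e-05) and -0.41 ± 0.07 (adjusted p = 5.10e-04) in VCaP siControl, siERG, LNCaP shControl and shETV1 cells. A second OPTN probe set gave -0.54, -0.63, -0.46 and -0.46. NBR1, a receptor related to SQSTM1, fell with a log2 change of -0.18 ± 0.04, -0.22 ± 0.04, -0.20 ± 0.04 and -0.16 ± 0.04. Its values were 1912, 1950.3 and 1789 with EtOH and 1714, 1631 and 1635 with DHT in VCaP siControl cells and 2001, 2126 and 1956 and 1780.4, 1762 and 1756 in LNCaP shControl cells, without overlap. A dimmer NBR1 probe set gave 0.19 in shETV1 cells (adjusted p = 0.207), the opposite sign. SQSTM1, the gene of p62, read 3675, 3336 and 3440.0 with EtOH and 3712, 3328 and 3556 with DHT in VCaP siControl cells, and these values overlapped (0.02 ± 0.07). In siERG cells it read 3516, 3473 and 3484 and 3598, 3631 and 3095 (-0.02 ± 0.07), which also overlapped. In LNCaP it read 4421, 4750.2 and 4519 and 3978, 3892 and 3957 in shControl and 4534, 4703 and 4738 and 3776, 3609.8 and 3881 in shETV1 cells. There the DHT arrays were lower without overlap, with changes of -0.21 ± 0.04 (adjusted p = 0.00231) and -0.31 ± 0.04 (adjusted p = 1.72e-04). Of its other probe sets, which are dimmer, the brightest gave 0.06 in shControl and -0.16 in shETV1 cells, and neither passed.

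At the lysosome, TFEB rose with DHT in both lines and was the member most changed by the ERG knockdown. It read 121, 108 and 111 with EtOH and 244, 242 and 268 with DHT in VCaP siControl cells. With siERG it read 63.3, 71.5 and 75.3 and 172, 171 and 190.1. The 4 groups did not overlap, and TFEB was lower with siERG in both media. With DHT it rose by 1.05 ± 0.07 (adjusted p = 7.02e-07) in siControl, 2.07-fold, and by 1.17 ± 0.07 (adjusted p = 3.27e-07) in siERG cells, 2.25-fold. The siERG effect was -0.59 ± 0.07 (adjusted p = 4.86e-04) in EtOH and -0.47 ± 0.07 (adjusted p = 0.00197) in DHT. The siControl EtOH arrays serve both as the base of the DHT response and of the siERG effect in EtOH. The interaction, the DHT response in siERG minus that in siControl cells, was 0.12 ± 0.10 and did not pass (adjusted p = 0.697). In LNCaP the values were 91.8, 89.0 and 104 with EtOH and 132.9, 152 and 147 with DHT in shControl, and 102, 89.8 and 93.1 and 137, 146 and 113 in shETV1 cells. With DHT TFEB rose there by 0.53 ± 0.09 (adjusted p = 6.24e-04) and 0.41 ± 0.09 (adjusted p = 0.00364), and shETV1 changed it by 0.0038 ± 0.09 in EtOH and -0.12 ± 0.09 in DHT, with arrays that overlapped. In VCaP the siERG effect on TFEB in EtOH passed under all 27 other settings run, from -0.69 to -0.41. With the GAPDH ratio as covariate the siERG effect was -0.67 in EtOH (adjusted p = 0.0145) and -0.38 in DHT (adjusted p = 0.137). The average of both TFEB probe sets, the second of which is dim, gave -0.38 in DHT (adjusted p = 0.067), so the call in DHT is lost under both.

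The other lysosomal members changed less. TFE3, a relative of TFEB, rose in VCaP by 0.19 ± 0.07 (adjusted p = 0.0349) and 0.20 ± 0.07 (adjusted p = 0.0303), and the average of its 4 probe sets gave -0.05 in siControl cells (adjusted p = 0.753). CTSD, the protease cathepsin D, read 422, 426 and 399.6 with EtOH and 455, 425 and 443 with DHT in VCaP siControl cells and 421, 433 and 447 and 495, 497 and 461 in siERG cells. It rose in siERG cells (0.15 ± 0.05, adjusted p = 0.0226), and 0.08 ± 0.05 in siControl cells did not pass. In LNCaP CTSD read 442, 406 and 430.1 and 405, 375 and 425 in shControl cells, with overlap, and 422, 376 and 411 and 370.3, 371 and 369.9 in shETV1 cells, without overlap, and neither change passed. LAMP1, a major membrane glycoprotein of lysosomes, fell in LNCaP with changes of -0.14 ± 0.04 (adjusted p = 0.017) and -0.13 ± 0.04 (adjusted p = 0.0312). STX17, the SNARE protein that fuses autophagosome and lysosome, passed in no comparison by its brightest probe set (0.03 ± 0.05 in VCaP siERG cells), while the average of its 5 probe sets fell there, with a change of -0.14 (adjusted p = 0.0182). LAMP2, the partner of LAMP1, read 3497, 3453 and 3498 with EtOH and 2907, 2798 and 3011 with DHT in LNCaP shControl cells, without overlap. It fell in LNCaP with changes of -0.26 ± 0.04 (adjusted p = 7.49e-04) and -0.25 ± 0.04 (adjusted p = 0.00103). In VCaP siControl cells its brightest probe set rose by 0.13 ± 0.04 (adjusted p = 0.0285), but the other 3 probe sets gave -0.26, -0.16 and -0.45, and the average of the 4 was -0.18 (adjusted p = 0.00306). The direction of LAMP2 in VCaP therefore depends on the probe set, while in LNCaP all 4 probe sets were negative.

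**Figure D3:**
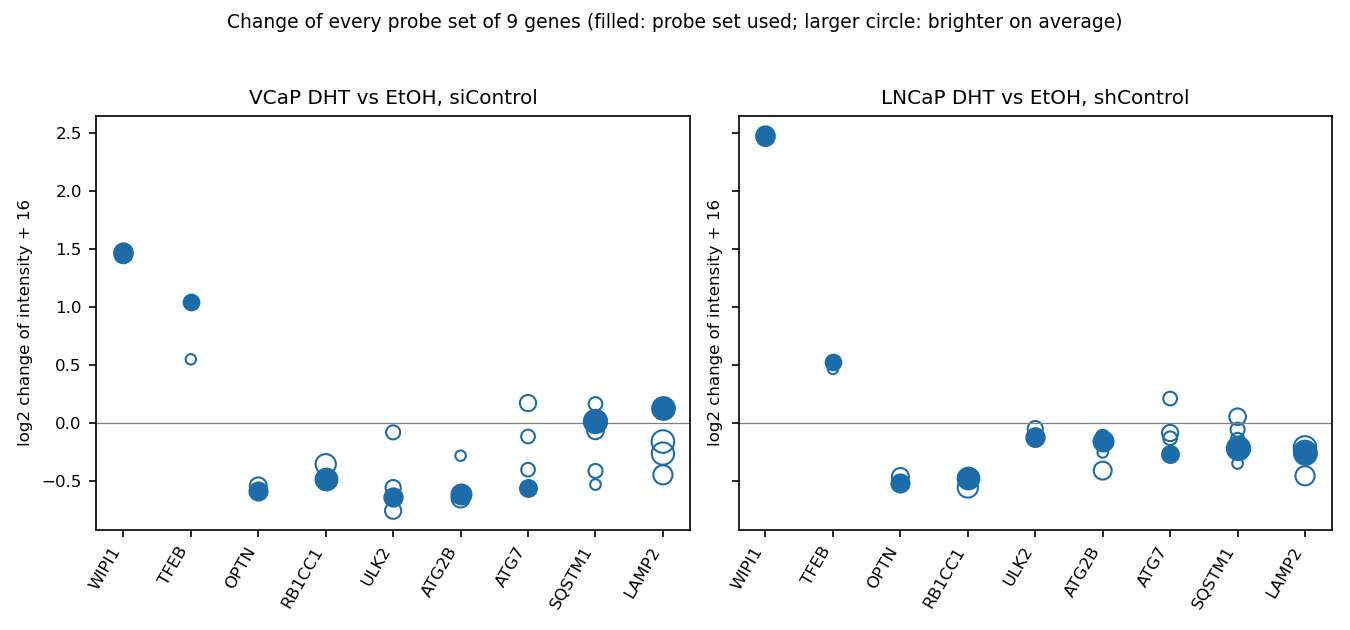
Log2 change with DHT in control cells for every single-gene probe set of 9 members (filled: the probe set used; larger circles are brighter). Both probe sets of WIPI1 coincide in each line, those of ATG7 spread from -0.55 to 0.17 in VCaP, and the LAMP2 probe set used lies above 0 in VCaP with the other 3 below.

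The start regions of 36 of the 41 genes are in RefSeq's promoter table (GRCh38.p14), and 2 letter patterns were searched on both strands in the 250 bases before each of 45 annotated starts. CACGTG is the core of the site of TFEB and TFE3. CCGGAA, searched as TTCCGG on the other strand, is the common core of ETS sites. CACGTG, which reads the same on both strands, stood before 5 genes (ULK3, ATG14, ATG3, LAMP1 and CTSD), 13.9% of the 36, against 11.2% of the 10018 genes tested in both lines that the table holds and 7.73% of all 27305 genes in it. LAMP1 alone held 5 copies. CCGGAA stood before 15 genes, 41.7%, against 29.8% and 17.2%. A match is a run of letters and does not show binding.

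Below are the 250 bases before the start of WIPI1 and TFEB, which rose with DHT in both lines, of ATG3, which fell in both and holds both patterns, and of CTSD, a member whose start region carries CACGTG. They are written 5′ to 3′ on the gene's strand, which is the minus strand for all 4, with matches to the 2 patterns in capitals. They lie at chr17:68457497-68457746 (WIPI1), chr6:41734402-41734651 (TFEB, the last listed of 3 starts and the one with a match), chr3:112561963-112562212 (ATG3) and chr11:1763928-1764177 (CTSD).
WIPI1: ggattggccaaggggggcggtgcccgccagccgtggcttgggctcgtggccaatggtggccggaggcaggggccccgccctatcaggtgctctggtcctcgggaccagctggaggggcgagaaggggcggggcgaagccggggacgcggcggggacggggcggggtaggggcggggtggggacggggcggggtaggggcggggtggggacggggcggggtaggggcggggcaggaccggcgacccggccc
TFEB: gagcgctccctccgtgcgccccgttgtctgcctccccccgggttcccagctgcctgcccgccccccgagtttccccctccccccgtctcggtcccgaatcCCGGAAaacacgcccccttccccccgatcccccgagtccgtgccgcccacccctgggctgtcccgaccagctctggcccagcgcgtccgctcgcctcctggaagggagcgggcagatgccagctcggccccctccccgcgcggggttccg
ATG3: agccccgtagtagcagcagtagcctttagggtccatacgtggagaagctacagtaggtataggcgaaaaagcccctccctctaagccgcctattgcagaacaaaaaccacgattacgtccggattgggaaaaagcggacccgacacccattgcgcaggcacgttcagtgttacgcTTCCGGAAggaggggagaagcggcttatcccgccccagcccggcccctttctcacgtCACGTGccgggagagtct
CTSD: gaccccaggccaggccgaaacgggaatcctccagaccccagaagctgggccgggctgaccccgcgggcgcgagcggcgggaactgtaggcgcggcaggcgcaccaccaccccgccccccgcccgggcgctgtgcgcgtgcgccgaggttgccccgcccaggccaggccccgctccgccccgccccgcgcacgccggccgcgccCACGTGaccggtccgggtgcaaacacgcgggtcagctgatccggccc
The WIPI1 window held neither pattern. The TFEB window held 1 ETS core, which begins 150 bases before the start. In ATG3 the ETS core on one strand overlaps that on the other, 75 and 73 bases before the start, and CACGTG begins 18 bases before it. In CTSD CACGTG begins 47 bases before the start.

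The DHT responses of control cells differed between the lines for 16 of the 41 members, and WIPI1 differed most. Across the 41 members the VCaP siControl and LNCaP shControl changes had a Pearson correlation of 0.73 (Spearman 0.61), and 0.48 without WIPI1 and TFEB. Over all 12305 genes tested in both lines it was 0.48. These are descriptions across genes, which are not independent, and no arrays are shared. In a fit of all 24 arrays the LNCaP response minus the VCaP response passed for 16 members, 6 of them with a positive difference (17.6% of all genes) and 10 with a negative one (14.3%). WIPI1 rose more in LNCaP, by 1.01 ± 0.10 (adjusted p = 2.07e-07), and ATG101 did too, by 0.53 ± 0.10 (adjusted p = 2.67e-04). ULK2, ATG2B and WIPI2, which fell in VCaP siControl cells and did not pass in LNCaP, had differences of 0.52 ± 0.11, 0.46 ± 0.08 and 0.48 ± 0.10, and ULK3 one of 0.46 ± 0.10. On the negative side stood ATG4A (-0.60 ± 0.09, adjusted p = 5.67e-05), TFEB (-0.52 ± 0.11, adjusted p = 0.00162) and LAMP2 (-0.39 ± 0.06), the last with the probe set disagreement given above. VMP1, with its low VCaP EtOH values, stood there too (-0.75 ± 0.13). It entered the VCaP test through its DHT arrays, so its difference is a description. The dim second probe set of TFEB gave similar DHT changes in both lines, 0.55 in VCaP siControl and 0.47 in LNCaP shControl cells. All 6 positive differences belong to initiation genes, but 2 other initiation genes, VMP1 and UVRAG (-0.29 ± 0.11), had a negative one. Of the 14 conjugation members, 5 had a negative difference: ATG3 (-0.27 ± 0.09), ATG16L1, ATG4A, ATG4B and MAP1LC3B.

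**Figure D4:**
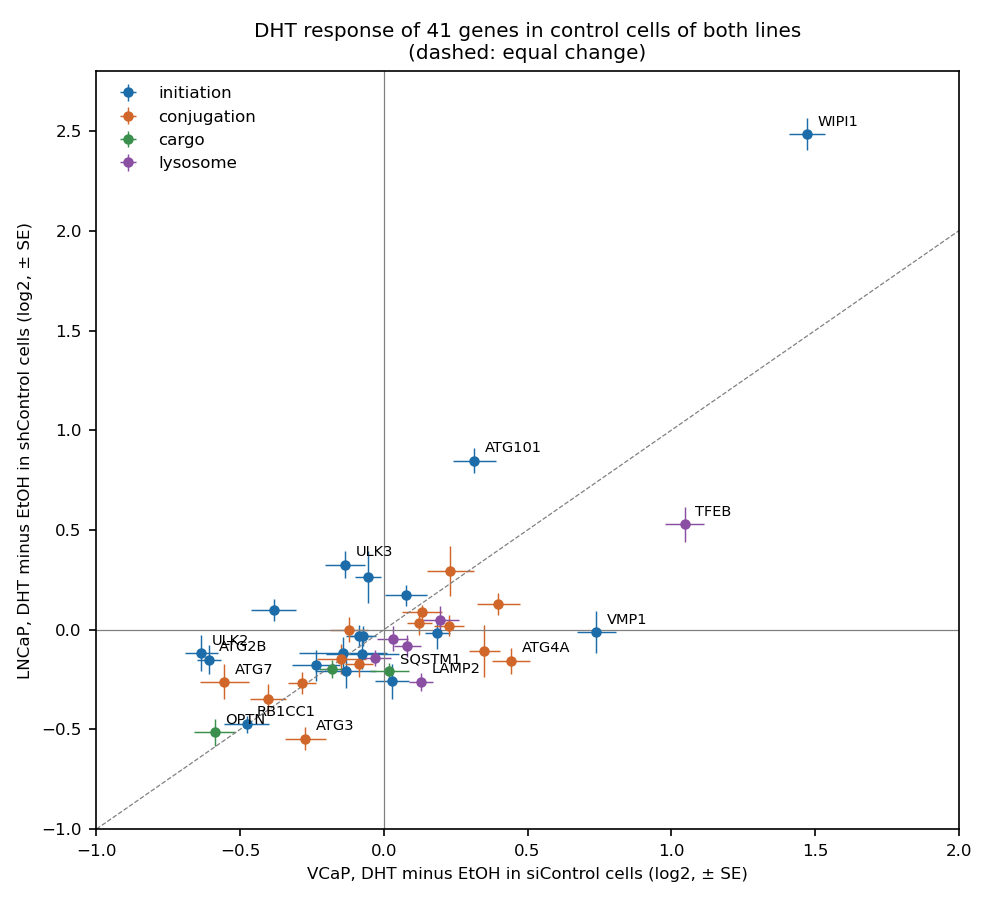
DHT minus EtOH in VCaP siControl cells (x, log2) against the same in LNCaP shControl cells (y, log2) for the 41 members, coloured by step, with standard errors as bars; the dashed line marks equal change. WIPI1 and ATG101 lie above the line, TFEB, VMP1 and ATG4A below it, and ULK2 and ATG2B are negative in VCaP and near 0 in LNCaP, at -0.12 and -0.15.

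With knockdown of ERG, TFEB was called in both media and 4 other members in 1 of them. With EtOH, 1 of 41 rose (5.37% of all genes) and 3 fell (5.87%), and with DHT 0 rose (3.79%) and 2 fell (5.18%), shares of 41 close to or below the background. In limma 12 of 41 had an unadjusted p below 0.05 in EtOH, against 25.9% of all genes, and 7 of 41 in DHT, against 22.8%. PIK3C3 read 648, 663 and 669 with siControl and 583, 584 and 584 with siERG in EtOH, without overlap, and fell with a log2 change of -0.17 ± 0.05 (adjusted p = 0.0349). ATG7 read 277, 334 and 309 and 233, 240.1 and 261 and fell with a log2 change of -0.30 ± 0.09 (adjusted p = 0.0473), again by its brightest probe set. ATG4A read 281, 281 and 322 and 350.7, 369.6 and 350.2 and rose by 0.27 ± 0.07 (adjusted p = 0.0305). In DHT GABARAPL2 read 4056, 4039 and 4114 with siControl and 3739, 3484 and 3373 with siERG and fell with a log2 change of -0.21 ± 0.05 (adjusted p = 0.0237). Apart from TFEB in EtOH, each of these calls was lost under some setting. ATG7 and ATG4A share their siControl EtOH arrays with their DHT responses in siControl cells. GABARAPL2 shares its siERG DHT arrays with its DHT response in siERG cells. Leaving out single arrays gave 1 to 5 calls in EtOH and 1 to 6 in DHT, where the 6 came without siERG DHT array C. In EtOH, 1 call stood without siControl EtOH array B or any single siERG EtOH array, and 2 without siControl EtOH array A. In DHT, 1 stood without any single siControl DHT array or without siERG DHT array B. With the GAPDH ratio as covariate 1 and 0 members were called, and in the DHT response of siERG cells 10 rather than 26. Arrays centred on their medians gave 6 lower and 0 higher calls in EtOH, and quantile normalization gave 3 of each. The siERG by DHT interaction was called for 0 members by limma (1 of 41 at an unadjusted p below 0.05, LAMP2, against 10.9% of all genes), and for 0.0623% of all genes in the positive and 0.226% in the negative direction.

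With knockdown of ETV1 in LNCaP 0 members were called in EtOH and 2 in DHT. With EtOH 0 of 41 members were called by limma, against 1.22% of all genes higher and 2.97% lower; 5 members had an unadjusted p below 0.05 (ATG4D, BECN1, GABARAPL1, OPTN and WIPI1), against 18% of all genes, and a trended, robust variance called 1. With DHT 1 rose (2.68%) and 1 fell (2.5%). RB1CC1 read 1294, 1294 and 1267 with shControl and 1408, 1537 and 1434 with shETV1, a rise of 0.18 ± 0.04 (adjusted p = 0.0345). GABARAPL1 read 622, 707 and 693 and 518, 585 and 478, a log2 change of -0.35 ± 0.08 (adjusted p = 0.0277). The arrays were apart for both. The shControl DHT arrays of RB1CC1 and the shETV1 DHT arrays of GABARAPL1 also enter the DHT falls given above. Arrays centred on their medians called 2 members, both lower, and quantile normalization called 1 higher and 2 lower. With the GAPDH ratio as covariate 0 members were called in DHT. Left-out arrays gave 0 to 3 calls in DHT, with 0 without shControl DHT array B or C or shETV1 DHT array A or C, and 1 without shControl DHT array A, shControl EtOH array A or shETV1 EtOH array B or C. In EtOH 1 call appeared without shETV1 DHT array A. The shETV1 by DHT interaction was called for 0 members (1 of 41 at an unadjusted p below 0.05, RB1CC1, against 7.5% of all genes), and for 0.078% of all genes in the positive and 0.0234% in the negative direction. Set against each other, the shETV1 effect minus the siERG effect in EtOH was positive for TFEB, 0.59 ± 0.11 (adjusted p = 0.00223), and ATG4D, 0.51 ± 0.16 (adjusted p = 0.0445), and negative for LAMP2, -0.21 ± 0.06 (adjusted p = 0.027), that is 2 (4.16% of all genes) and 1 (5.4%). In DHT it was positive for RB1CC1, 0.31 ± 0.09 (adjusted p = 0.032), and GABARAPL2, 0.31 ± 0.08 (adjusted p = 0.0165) (4.28% of all genes), and negative for CTSD, -0.24 ± 0.07 (adjusted p = 0.0497) (3.22%). In EtOH, arrays centred on their medians gave 5 positive and 0 negative differences and quantile normalization 2 of each. With the GAPDH ratio as covariate 1 was called in each medium. There were 8 calls in EtOH without shControl EtOH array B, and 1 without shControl EtOH array A or C, siERG EtOH array A or B or shETV1 EtOH array C. In DHT 1 was left without siControl DHT array B or C or siERG DHT array A or B.

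Upstream of autophagy, the list of mTORC1 and AMPK control genes held 36 tested genes. With DHT 5 rose and 8 fell in VCaP siControl cells, where 19.6% and 25.4% of all genes tested did, and 5 rose and 17 fell in LNCaP shControl cells, where 18.6% and 22.3% did. Among those that rose were TSC2, an inhibitor of mTORC1 (0.70 ± 0.20 in VCaP, 1.27 ± 0.08 in LNCaP), the kinase MTOR itself (0.88 ± 0.07 in LNCaP) and CAMKK2, a kinase that activates AMPK (1.40 ± 0.10 in LNCaP). Among those that fell were SESN3 (-1.30 ± 0.08 and -0.90 ± 0.06) and SESN1 (-0.60 ± 0.05 and -0.63 ± 0.04), stress-induced inhibitors of mTORC1, and DEPTOR, an inhibitory mTOR partner (-0.79 ± 0.05 and -1.19 ± 0.06). SESN2 rose with DHT in VCaP siControl cells (0.64 ± 0.11) and fell with DHT in LNCaP shETV1 cells (-0.76 ± 0.06). Inhibitors of mTORC1 thus stood on both sides. The median change over the list was -0.03 in VCaP siControl and -0.15 in LNCaP shControl cells, against -0.03 and -0.01 over all genes tested. With siERG, FNIP2, a folliculin partner at the lysosome, fell with log2 changes of -0.58 ± 0.05 in EtOH and -0.67 ± 0.05 in DHT, and SESN2 rose by 0.49 ± 0.11 and 0.50 ± 0.11. DDIT4, a stress-induced mTORC1 inhibitor, fell with siERG (-0.28 ± 0.06 and -0.41 ± 0.06) and rose with DHT in siControl cells (0.57 ± 0.06), 2 contrasts that share the siControl EtOH arrays. In all, 4 of the 36 rose and 3 fell in EtOH (5.37% and 5.87% of all genes) and 2 rose and 4 fell in DHT (3.79% and 5.18%).

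Further autophagy genes, 40 tested in VCaP and 39 in LNCaP, gave 8 rises and 8 falls with DHT in VCaP siControl cells (all genes: 19.6% and 25.4%) and 5 rises and 11 falls in LNCaP shControl cells (18.6% and 22.3%). RETREG1, a receptor for autophagy of the endoplasmic reticulum, fell with log2 changes of -1.33 ± 0.08 and -0.88 ± 0.05, and TP53INP1, a stress-induced autophagy adaptor, with a change of -1.14 ± 0.07 in LNCaP. FOXO3, a transcription factor for autophagy genes, rose by 0.48 ± 0.05 and 0.26 ± 0.06. FOXO1 fell with each knockdown in EtOH, with changes of -0.35 ± 0.09 with siERG and -0.55 ± 0.10 with shETV1. With siERG 3 of the 40 genes fell in EtOH and 3 in DHT, against 5.87% and 5.18% of all genes.

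Lysosomal enzymes and membrane proteins, 39 tested, gave 6 rises and 16 falls with DHT in VCaP siControl cells, against 19.6% and 25.4% of all genes, and 4 rises and 13 falls in LNCaP shControl cells, against 18.6% and 22.3%. The medians were -0.08 and -0.11, against -0.03 and -0.01 over all genes tested. LGMN, the protease legumain, rose by 1.02 ± 0.05 in VCaP and 0.36 ± 0.06 in LNCaP, and NPC1, the lysosomal cholesterol exporter, by 0.30 ± 0.06 and 0.23 ± 0.04. MANBA, beta-mannosidase, fell with log2 changes of -0.85 ± 0.06 and -0.91 ± 0.07. With shETV1 in EtOH 2 of the 39 rose and 3 fell (1.22% and 2.97% of all genes), the largest being CTSC, cathepsin C (-0.86 ± 0.14), and NPC1 rose in both media (0.21 ± 0.04 and 0.38 ± 0.04). NEU1, a sialidase, fell with a log2 change of -0.52 ± 0.07 in LNCaP. Of 17 subunits and partners of the vacuolar ATPase, the proton pump of the lysosome, 7 rose and 1 fell with DHT in VCaP siControl cells (all genes: 19.6% and 25.4%) and 6 rose and 3 fell in LNCaP shControl cells (18.6% and 22.3%). ATP6V0A2 rose by 0.77 ± 0.06 and 0.83 ± 0.07, and ATP6V1H fell with log2 changes of -0.21 ± 0.05 and -0.32 ± 0.04. ATP6V0A2 also rose with siERG, by 0.31 ± 0.06 in EtOH and 0.40 ± 0.06 in DHT, and was the one vacuolar ATPase gene called there.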

How the data were processed

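RNA of 8 groups was hybridised to 24 arrays of the HG-U133 Plus 2.0 design, 3 per group. The authors' deposited values are probe-set intensities on a linear scale, and no source used here states how the authors summarised or scaled them. They are no counts, so the number of arrays limits the precision. Of 54675 probe sets, the 41091 that the platform annotation gives to a single gene were kept, and each of 19775 genes was represented by its brightest probe set (highest mean log2 over the 24 arrays). Log2 values of intensity + 16 were fitted with limma 3.58.1 in R 4.3.3, separately in each line with its 4 groups of 3 arrays, and p-values were adjusted by Benjamini-Hochberg over the genes above the array median on at least 3 of the line's 12 arrays (12840 in VCaP, 12823 in LNCaP). Differences between the lines came from 1 fit of all 24 arrays over the 12305 genes tested in both. The member genes and the pathway lists were chosen with earlier results of these data known. The text names every member that was called, and from each list up to 3 genes per direction with the largest change. Groups follow the labels; the LNCaP control is written as shControl in some labels and as siControl in others. Nothing states whether same-lettered arrays were handled together, and p-values measure the spread between these arrays. The method was tested on simulated intensities. Alternatives were other probe set choices, filters, offsets, scalings, variance models, covariates, a replicate block and each array left out. Members of the lists that the sources used here do not hold are not analysed here.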

Additional observations from a re-analysis of the deposited data

Results flagged for a closer look

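Differences between the lines passed the test for the following members, each given as the LNCaP change minus the VCaP change on the log2 scale, from limma with p adjusted over all genes tested. For the DHT response of control cells, the differences were 1.01 for WIPI1, 0.53 for ATG101, 0.52 for ULK2, 0.48 for WIPI2, 0.46 for ULK3 and 0.46 for ATG2B. They were -0.75 for VMP1, -0.60 for ATG4A, -0.52 for TFEB, -0.46 for ATG16L1, -0.39 for LAMP2, -0.29 for UVRAG, -0.27 for ATG3, -0.27 for ATG4B, -0.23 for SQSTM1 and -0.20 for MAP1LC3B. Of these, the calls of WIPI1, ATG101, ULK2, WIPI2, ULK3, ATG2B and ATG4A passed under every other setting run. The SQSTM1 difference changed sign with other probe sets. LAMP2 probe sets other than the one used gave -0.26, -0.16 and -0.45 in VCaP siControl and -0.25, -0.21 and -0.45 in LNCaP shControl cells. A dim second TFEB probe set gave 0.55 in VCaP siControl and 0.47 in LNCaP shControl cells. A second MAP1LC3B probe set, about as bright, gave 0.15 in LNCaP and 0.0013 in VCaP, and with both averaged the MAP1LC3B difference was -0.030 and did not pass. VMP1 was below the array median on all 6 VCaP EtOH arrays and entered the VCaP test through its DHT arrays, so its difference is a description.

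For the knockdown effect in EtOH, the shETV1 change minus the siERG change was 0.59 for TFEB, 0.51 for ATG4D and -0.21 for LAMP2. In DHT it was 0.31 for RB1CC1, 0.31 for GABARAPL2 and -0.24 for CTSD. Of these, the GABARAPL2 difference passed under every other setting run in which it was tested. GABARAPL2 has no probe set outside the _s_at kind. The knockdowns differ in target, reagent and cell line, which cannot be told apart.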

How the results depend on the processing

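Of 113 member changes called, 51 passed under every setting run in which the gene was tested and 61 were lost under at least 1. With probe sets averaged, the sign turned for TFE3 (-0.046) and LAMP2 (-0.18) with DHT in VCaP siControl cells, for ATG16L1 (-0.10) and STX17 (-0.14) with DHT in siERG cells and for SQSTM1 between the lines (0.025). Without _x_at and _s_at probe sets it turned with DHT in LNCaP for ATG7 (0.21 in shControl, 0.053 in shETV1), SQSTM1 (0.056 in shControl) and NBR1 (0.19 in shETV1), and for SQSTM1 between the lines (0.12).

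Counts of members called moved as follows from 4 (siERG in EtOH), 2 (siERG in DHT), 24 and 26 (DHT in VCaP), 0 and 2 (shETV1 in EtOH and DHT), 17 and 16 (DHT in LNCaP) and 3, 3 and 16 (knockdown in EtOH, in DHT and DHT response between lines). Averaged probe sets gave 2 and 1 with siERG and 1 with shETV1 in DHT. Leaving out _x_at and _s_at probe sets gave 1 with siERG in DHT, 15 and 15 with DHT in VCaP, 11 and 8 in LNCaP, 1 with shETV1 in DHT and 0 for knockdown in DHT between lines. Members with only such probe sets were absent from these counts. No filter gave 1 and 1 with siERG, 0 with shETV1 in DHT and 1 and 1 for knockdown between lines. Centred arrays gave 5 for knockdown in EtOH between lines, and a trended, robust variance gave 1 with shETV1 in EtOH. Array weights gave 8 and 6 with siERG and 7 and 5 for knockdown between lines. Fits of only the 2 groups compared gave 1 with siERG and 0 with shETV1 in DHT. The GAPDH covariate gave 1 and 0 with siERG, 10 with DHT in siERG cells, 0 with shETV1 in DHT and 1 and 1 for knockdown between lines, with a median standard error over all genes of 0.142 for DHT in siERG cells against 0.071 without it. The ACTB covariate gave 1 with siERG in EtOH and 1 with shETV1 in DHT. The share of all genes called under each alternative is not given here, so these counts do not describe the members alone. In the reported fit 3 members rose and 7 fell in all 4 DHT comparisons, a count added after the data were seen. The falls became 2 without _x_at and _s_at probe sets, where RB1CC1 and ATG5 were absent, and 3 with the GAPDH covariate.

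With each array left out in turn, the counts ranged from 1 to 5 (siERG in EtOH), 1 to 6 (siERG in DHT), 19 to 24 and 22 to 26 (DHT in VCaP), 0 to 1 and 0 to 3 (shETV1), 14 to 17 and 12 to 17 (DHT in LNCaP), 0 to 0 for both interactions, 1 to 8, 1 to 4 and 11 to 16 (between lines), and 3 to 3 higher and 5 to 8 lower in all 4 DHT comparisons.

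Arrays of the same letter did not deviate together (correlations from -0.117 to 0.125, above 0.1 in 2 of 12 pairs in VCaP and 1 of 12 in LNCaP). Such correlations cannot show whether these arrays were handled together. With the replicate block 2 members were called with siERG in EtOH, 1 with shETV1 in DHT and 1 for knockdown in EtOH between lines, and no other count moved by over 1.5 times.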
